A study of Mus musculus with 8 samples.

Results

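Camkk1 and 8 other genes of the calcium-calmodulin kinase and AMPK pathways were followed in bulk RNA sequencing of mouse hematopoietic stem cells (HSCs) and LSK cells cultured with red blood cells (RBCs) or alone. The members were chosen by name, as the rows of the expression files for Camkk1, Camkk2, Camk4, Camk1d, Camk2d, Prkaa1, Prkab1, Prkag1 and Stk11, and all 9 were found among the 24346 gene symbols. Camkk1 entered because the study had singled it out on these same libraries for its difference with RBCs in both populations and for its level in HSCs and LSK cells, so its values are given as a description with no test. The study asked what contact with RBCs does to hematopoietic stem and progenitor cells. All groups came from the bone marrow of wild-type C57BL/6 mice, 8 to 20 weeks old. HSCs were sorted as lineage-negative, Sca-1+, c-Kit+, CD48-, CD150+ cells, and LSK cells as lineage-negative, Sca-1+, c-Kit+ cells, a wider population that still holds HSCs. Every group was cultured for 1 day in serum-free medium with 100 ng/mL thrombopoietin and 10 ng/mL stem cell factor. In the cocultures, RBCs from C57BL6/J blood were added after leukocyte filtration and irradiation at 20 Gy. After culture, the methods describe RBC lysis and a sort of CD45+ cells for the cultures with and without RBCs alike. Each of the 4 groups had 2 libraries. The labels do not say that these came from separate cultures or animals, so the p-values measure only the spread between the libraries, which may be technical.

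Calcium that enters the cytosol binds calmodulin, and calcium-calmodulin switches on a family of serine-threonine kinases. At the top of the cascade, the calcium-calmodulin-dependent kinase kinases CaMKK1 and CaMKK2 phosphorylate the activation loops of CaMKI and CaMKIV, and CaMKIV in turn phosphorylates transcription factors such as CREB. CaMKII, encoded by a separate set of genes, activates itself by autophosphorylation and does not need a CaMKK. CaMKK2 also phosphorylates AMPK, the energy-sensing kinase built from a catalytic alpha, a scaffold beta and a nucleotide-binding gamma subunit. The main AMPK kinase under energy stress is LKB1, the product of Stk11, which is known to be needed for HSC survival and quiescence.

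The genes lie on 7 chromosomes of GRCm38 (GENCODE M21). Camkk1 lies on chromosome 11 from 73019008 to 73042073 on the plus strand, and Camkk2 on chromosome 5 from 122731170 to 122779409 on the minus strand. Neither overlaps another annotated gene. The other 7 members each overlap a gene on the opposite strand (Cbarp for Stk11, Gm15938 for Prkaa1, B130046B21Rik for Prkag1), and since no strand-specific counting is stated, reads of such partners cannot be told apart. The proximal promoters of the CaMKK genes are shown because these paralogs, which share their substrates in the cascade, differed in level with RBCs. Each window holds the 250 bases before the start of the RefSeq gene in GRCm38.p6, read on the gene's strand, and capitals mark GC boxes with the letters GGGCGG, boxes with the letters CCAAT, and TGACG, which is the core of the cyclic AMP response element, on either strand.
Camkk1, chr11:73018738-73018987, plus strand: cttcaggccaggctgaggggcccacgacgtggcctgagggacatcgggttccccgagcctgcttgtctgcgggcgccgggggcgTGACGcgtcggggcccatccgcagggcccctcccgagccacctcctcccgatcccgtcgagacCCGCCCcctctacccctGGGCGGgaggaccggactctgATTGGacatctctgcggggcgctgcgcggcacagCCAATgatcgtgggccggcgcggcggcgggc
Camkk2, chr5:122779411-122779660, minus strand: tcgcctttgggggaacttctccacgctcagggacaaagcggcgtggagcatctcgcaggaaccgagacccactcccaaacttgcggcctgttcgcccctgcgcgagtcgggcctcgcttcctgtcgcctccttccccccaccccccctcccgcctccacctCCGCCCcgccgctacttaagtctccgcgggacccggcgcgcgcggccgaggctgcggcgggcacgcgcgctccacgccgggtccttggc
Both windows were rich in G and C, at 74.4% for Camkk1 and 72.4% for Camkk2 against a median of 52.4% over 32851 promoter windows of the same length. They held 29 and 32 CpG dinucleotides. The Camkk1 window had 2 GC boxes, 2 CCAAT boxes and 1 TGACG, and the Camkk2 window 1 GC box and neither of the other motifs. GC boxes occurred in 32.7% of all windows, CCAAT boxes in 33.8% and TGACG in 17.8%. The full cyclic AMP response element TGACGTCA (1.55% of windows), the AP-1 site TGANTCA (6.75%) and TATAAA (12.4%) had no match in either window. The Hes-type site CACGNG, present in 23.5% of windows, matched the Camkk2 window 1 time and CACNAG (36.7%) matched neither.

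Expression was deposited as FPKM, a fragment count corrected for the length of the transcript and the sequencing depth, so that levels of different genes can be set side by side. Relative to the first LSK library without RBCs, depth ranged from 0.886 to 1.13, and the absolute depth is unknown. Of the genes behind the sort, Ptprc (CD45), Kit and Ly6a (Sca-1) were present in all 8 libraries, but several differed with RBCs. Cd48 was at 42.7 and 40.5 FPKM in HSCs without RBCs, 16.0 and 22.8 with RBCs, 147 and 184 in LSK cells alone, and 124 and 128 in LSK cells with RBCs, and it was called lower with RBCs in HSCs (-1.08, limma adjusted p = 0.00694). Slamf1 (CD150) was at 10.2 and 10.7 FPKM in HSCs without RBCs, 5.50 and 6.59 with RBCs, 4.58 and 4.63 in LSK cells alone, and 3.09 and 4.28 in LSK cells with RBCs (adjusted p = 0.0596 for -0.70 in HSCs). Kit (-0.37, limma adjusted p = 0.0214) and Procr, the gene of the stem cell marker EPCR (-0.52, adjusted p = 0.0149), were also lower with RBCs in HSCs, by less than 2-fold. Ly6a went the other way in HSCs, at 388 and 444 FPKM without and 719 and 544 with RBCs, but did not pass the test (0.59, adjusted p = 0.260). In LSK cells Ly6a was at 381 and 226 FPKM alone and 204 and 170 with RBCs. The part of these differences in the results on the kinases was not tested. Some genes of other cell types differed with RBCs. Hba-a1, an alpha globin gene, was between 0.0826 and 1.53 FPKM in the libraries without RBCs and between 32.9 and 116 FPKM in those with RBCs, while the erythroid membrane gene Slc4a1 stayed at or below 0.0186 FPKM. The 8 red blood cell genes in the files summed to 111 to 338 FPKM. The beta globin gene Hbb-b2, whose reads can be split with near-identical copies, held the largest part in each library. It held less than most of the sum in some libraries with RBCs, such as 120 of 308 FPKM in the first HSC library with RBCs. The summed FPKM of 10 neutrophil genes was 10.6 and 8.54 in HSCs without RBCs, 254 and 46.4 with RBCs, 129 and 221 in LSK cells alone, and 572 and 365 in LSK cells with RBCs. Platelet genes summed to 79.9 to 229 FPKM. T cell genes (11.9 to 19.0, mostly Lck) and B cell genes (34.7 to 51.6, mostly Cd79b) were also detected, with Cd3e at or below 0.0702 FPKM.

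Camkk1 was about 3 times as abundant with RBCs in both populations. HSCs cultured alone had 7.51 and 6.54 FPKM, and HSCs with RBCs 22.9 and 20.8 FPKM. LSK cells alone had 3.68 and 5.02 FPKM, and LSK cells with RBCs 15.0 and 14.0 FPKM. The 4 groups therefore stood in the order HSCs with RBCs (21.8 ± 1.47), LSK cells with RBCs (14.5 ± 0.730), HSCs without RBCs (7.02 ± 0.687) and LSK cells without RBCs (4.35 ± 0.942; mean FPKM ± SD, n = 2 each), and libraries of neighboring groups did not overlap. The ratio of the group means was 3.11 in HSCs, with single pairs of libraries from 2.77 to 3.50, and 3.33 in LSK cells, with pairs from 2.79 to 4.08. On the log2(FPKM + 1) scale, which understates changes of genes with low FPKM, the difference with RBCs was 1.51 (SE 0.146) in HSCs and 1.55 (SE 0.146) in LSK cells, and these effects differed by -0.04 (SE 0.206). The HSC libraries were above the LSK libraries in either condition, by a ratio of means of LSK cells to HSCs of 0.619 without and 0.665 with RBCs. In bulk RNA, a smaller number of cells that express a gene and less RNA of it per cell cannot be told apart.

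**Figure D1:**
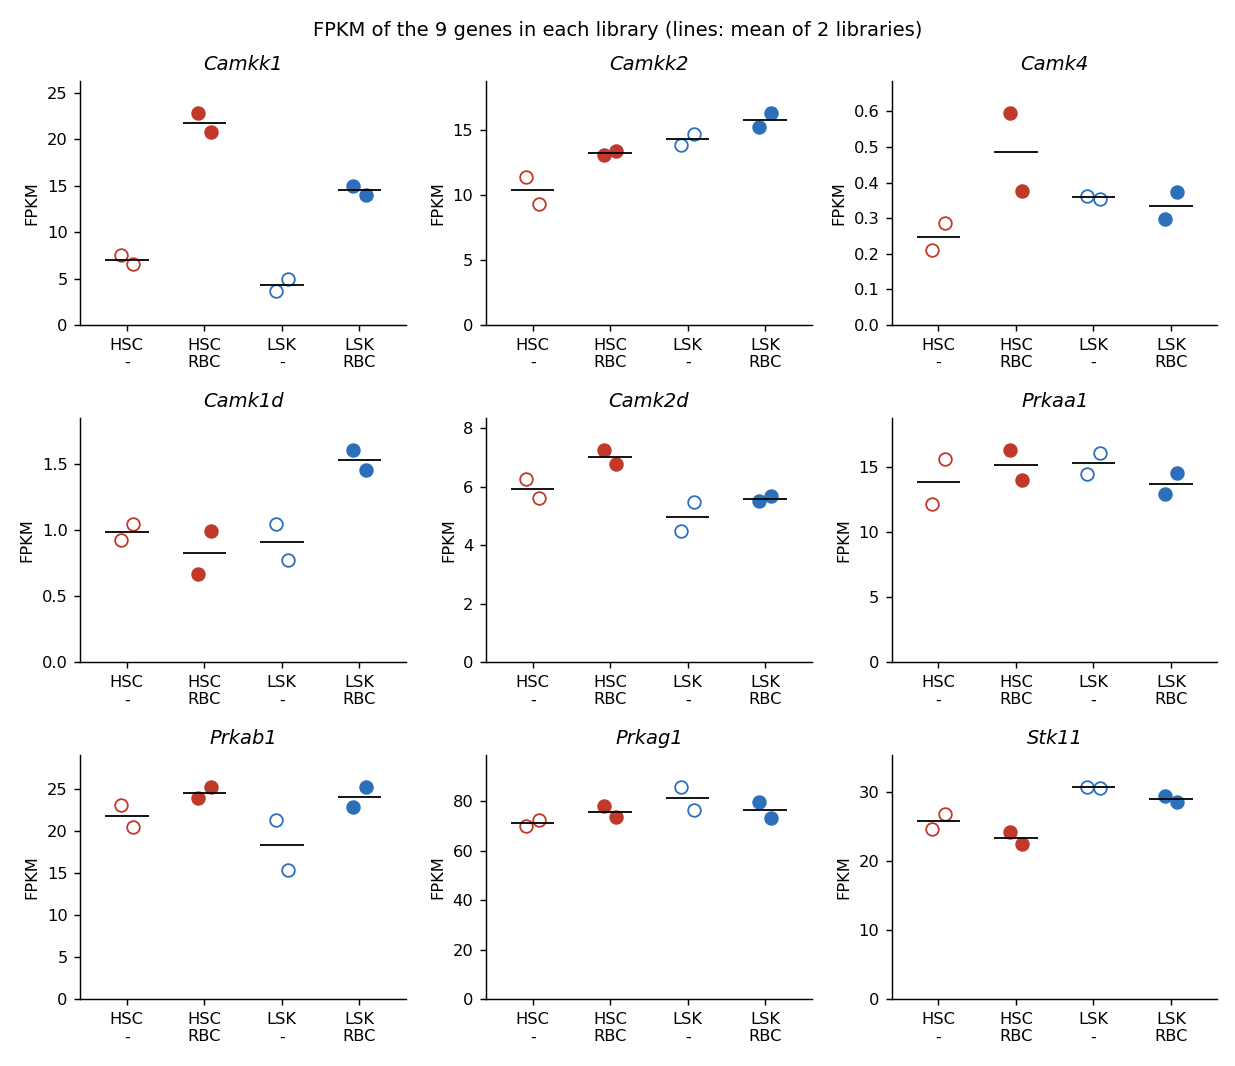
FPKM (y axes, each from 0) of the 9 genes in each library, by group on the x axis (- without RBCs, RBC with RBCs; red HSCs, blue LSK cells; open circles without RBCs, filled with RBCs; lines, mean of 2 libraries). Camkk1 is at 20.8 and 22.9 in HSCs with RBCs and at 14.0 and 15.0 in LSK cells with RBCs, above all 4 libraries without RBCs (3.68 to 7.51), while Stk11 lies between 22.5 and 30.7 in all 8 libraries.

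Every Camkk1 value was a whole multiple of a single step once the relative depth of the libraries was taken into account (tolerance 0.05 reads). Read as fragments, this gave at least 360 and 257 in HSCs without RBCs, 974 and 1002 in HSCs with RBCs, 157 and 238 in LSK cells alone, and 567 and 560 in LSK cells with RBCs. Counting error in these numbers is small beside the difference between the conditions. The neutrophil sums, given above, and the monocyte or macrophage sums were higher with RBCs in both populations, as Camkk1 was. The platelet, T cell, B cell and red blood cell sums were not higher in both. Platelet genes summed to 201 and 107 FPKM in LSK cells alone and 79.9 and 95.8 with RBCs. The summed FPKM of 6 monocyte or macrophage genes was 4.42 and 8.22 in HSCs without RBCs, 13.7 and 16.6 with RBCs, 26.2 and 32.8 in LSK cells alone, and 89.0 and 102 in LSK cells with RBCs. Most of it came from Csf1r, the receptor of macrophage colony-stimulating factor, whose difference was called in HSCs (1.32, adjusted p = 0.0121) and LSK cells (1.44, adjusted p = 0.00753), while Adgre1, the F4/80 gene of macrophages, was at or below 0.566 FPKM. Between the populations, the neutrophil and the monocyte or macrophage sums were higher in LSK cells than in HSCs, and Camkk1 was lower. Hba-a1 was higher in the same libraries as Camkk1. Hbb-b2 was at 279 and 335 FPKM in HSCs without RBCs and 120 and 158 with RBCs. In LSK cells Hbb-b2 was at 109 and 173 alone and 128 and 54.1 with RBCs. Hbb-b1 was at 1.93 and 1.94 FPKM in HSCs without RBCs and 65.1 and 31.0 with RBCs. In LSK cells Hbb-b1 was at 0.907 and 2.12 alone and 0.0438 and 0.0145 with RBCs. Of the 6 tested red blood cell genes, 5 were above 0 in HSCs and 4 in LSK cells. Of these, 3 and 1 were called higher, and 0 were called lower. The part of other cells and of RNA carried over from RBCs in the Camkk1 level was not tested.

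Camkk2, whose product is named above as an AMPK kinase, was the more abundant CaMKK without RBCs. Its FPKM was 11.4 and 9.35 in HSCs without RBCs, 13.1 and 13.4 in HSCs with RBCs, 13.9 and 14.7 in LSK cells alone, and 15.3 and 16.3 in LSK cells with RBCs. Libraries with RBCs lay above those without in either population and without overlap, but the difference did not pass the test in HSCs (0.33, SE 0.117, limma adjusted p = 0.233, 95% interval 0.07 to 0.59) or in LSK cells (0.14, SE 0.117, adjusted p = 0.594, 95% interval -0.13 to 0.40). The intervals lay below a 2-fold difference.

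The CaMKK paralogs thus exchanged rank with RBCs in HSCs and drew level in LSK cells. Camkk1 made up 39.7% and 41.2% of the summed CaMKK FPKM in HSCs without RBCs and 63.6% and 60.8% with RBCs. In LSK cells, its share was 21.0% and 25.5% in culture alone and 49.6% and 46.2% with RBCs. The summed CaMKK FPKM was between 15.9 and 19.7 in the 4 libraries without RBCs and between 30.3 and 36.0 in the 4 with RBCs. These shares follow from the Camkk1 difference that led to its choice and are given without a test.

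**Figure D2:**
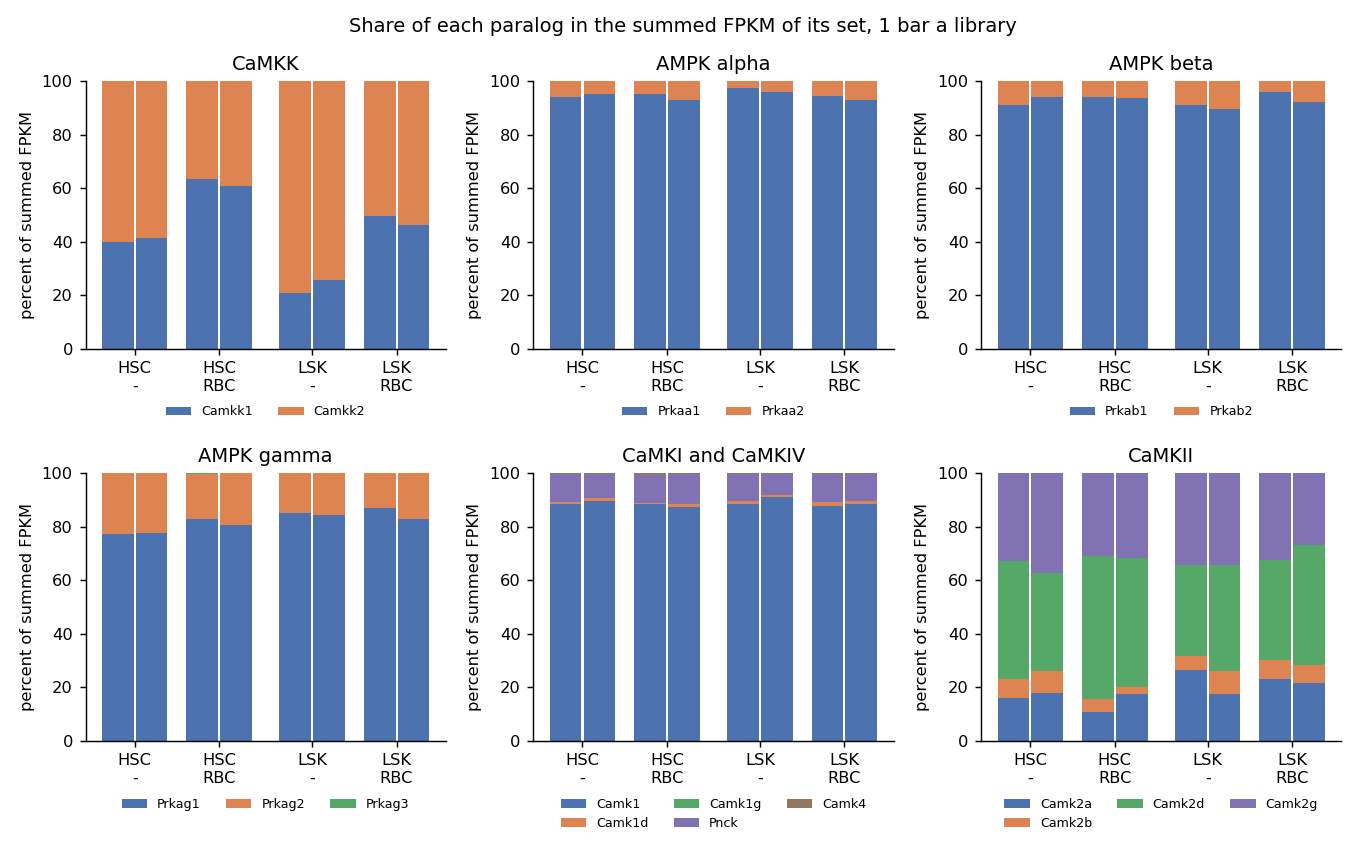
Percent of the summed FPKM (y axes, 0 to 100) held by each paralog of 6 sets, with 1 bar for each library, by group on the x axis (- without RBCs, RBC with RBCs). The Camkk1 part of the CaMKK bar is 60.8% and 63.6% in HSCs with RBCs and 39.7% and 41.2% without, while Prkaa1 holds 92.8% to 97.3% of the alpha subunit bar and Camk1 87.2% to 91.2% of the CaMKI and CaMKIV bar in all libraries.

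The kinases below CaMKK were at low levels among the members. Camk4, which encodes the nuclear kinase CaMKIV, lies on chromosome 18 and was the least abundant member. Its FPKM was 0.212 and 0.285 in HSCs without RBCs, 0.595 and 0.377 in HSCs with RBCs, 0.364 and 0.355 in LSK cells alone, and 0.297 and 0.374 in LSK cells with RBCs. No library reached the minimum of 1 FPKM, so Camk4 was left out of the test. The HSC libraries with RBCs lay above those without, but without the minimum, in a fit of 18967 genes, the difference of 0.25 (SE 0.0874) had an adjusted p of 0.358, and in LSK cells the difference was -0.03.

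Camk1d, which encodes the delta form of CaMKI, was at 0.923 and 1.05 FPKM in HSCs without RBCs, 0.665 and 0.992 with RBCs, 1.05 and 0.775 in LSK cells alone, and 1.61 and 1.46 in LSK cells with RBCs. Only the LSK libraries with RBCs stood above the rest. The difference with RBCs was 0.41 (SE 0.183, adjusted p = 0.275) in LSK cells and -0.12 (SE 0.183, adjusted p = 0.858) in HSCs, and a test of whether these effects differed did not pass either (-0.53, SE 0.259, adjusted p = 0.437). Most of the CaMKI and CaMKIV message came from Camk1, which held 87.2% to 91.2% of the summed FPKM of Camk1, Camk1d, Camk1g, Pnck and Camk4, while Camk1d held 0.628% to 1.37% and Camk4 0.205% to 0.595%. Camk1 itself had adjusted p-values of 0.537 in HSCs and 0.452 in LSK cells for the difference with RBCs, which was -0.13 and -0.12.

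Camk2d, the delta form of the CaMKK-independent kinase CaMKII, was at 6.26 and 5.60 FPKM in HSCs without RBCs, 7.25 and 6.77 with RBCs, 4.47 and 5.46 in LSK cells alone, and 5.50 and 5.69 in LSK cells with RBCs. The libraries with RBCs were above those without in each population, by 0.21 (SE 0.140, adjusted p = 0.602) in HSCs and 0.15 (SE 0.140, adjusted p = 0.628) in LSK cells. Camk2d had the largest share of the 4 CaMKII genes in 6 of 8 libraries, 34.1% to 53.5%, followed by Camk2g with 26.8% to 37.5%.

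Among the AMPK subunits, Prkag1, the gamma 1 subunit that binds AMP and ATP, was the most abundant member, at 70.0 and 72.4 FPKM in HSCs without RBCs, 78.2 and 73.6 with RBCs, 85.8 and 76.7 in LSK cells alone, and 79.9 and 73.3 in LSK cells with RBCs. Prkab1, the beta 1 scaffold subunit, was at 23.1 and 20.5 FPKM in HSCs without RBCs, 23.9 and 25.3 with RBCs, 21.3 and 15.4 in LSK cells alone, and 22.9 and 25.2 in LSK cells with RBCs. Prkaa1, the catalytic alpha 1 subunit, was at 12.2 and 15.6 FPKM in HSCs without RBCs, 16.3 and 14.0 with RBCs, 14.5 and 16.1 in LSK cells alone, and 12.9 and 14.5 in LSK cells with RBCs. For Prkaa1 the groups overlapped in both populations, and for Prkag1 they overlapped in LSK cells. Prkab1 with RBCs lay above Prkab1 without RBCs in both populations, and its difference was 0.17 (SE 0.143, adjusted p = 0.700) in HSCs and 0.39 (SE 0.143, adjusted p = 0.190) in LSK cells. The differences with RBCs were 0.13 and -0.15 for Prkaa1 and 0.09 and -0.08 for Prkag1 in HSCs and LSK cells, with adjusted p-values between 0.630 and 0.793. The detected AMPK message was mainly that of the alpha 1, beta 1 and gamma 1 subunits. Prkaa1 held 92.8% to 97.3% of the alpha, Prkab1 89.6% to 95.8% of the beta and Prkag1 77.3% to 87.1% of the gamma FPKM, with Prkag2 as most of the remainder.

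Stk11, which encodes the AMPK kinase LKB1, was at 24.7 and 26.8 FPKM in HSCs without RBCs, 24.2 and 22.5 with RBCs, 30.7 and 30.6 in LSK cells alone, and 29.5 and 28.6 in LSK cells with RBCs. Libraries with RBCs lay slightly below those without in each population. The difference was -0.14 (SE 0.0854, adjusted p = 0.562) in HSCs and -0.08 (SE 0.0854, adjusted p = 0.689) in LSK cells. Its partners in the LKB1 complex did not pass the test either, with Stradb the farthest from 0 in HSCs at -0.22.

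Set against RBCs, the pathway members other than Camkk1 thus gave no call. With a call at an adjusted p under 0.05 and at least 2-fold, 1 of the 8 tested members, Camkk1, was called in HSCs, where 0.775% of the 12003 tested genes were called, and 1 of 8, again Camkk1, in LSK cells, where 1.01% were called. Since Camkk1 was chosen on this contrast, nothing is read from its count. Without the fold threshold, the count of members was again 1 in each population, against 2.53% and 3.45% of all genes. Among the 7 other tested members, the 95% intervals of the RBC effects reached from -0.54 (Camk1d in HSCs) to 0.82 (Camk1d in LSK cells). Each interval lay inside a 2-fold difference of FPKM + 1. For Camk1d, near 1 FPKM, this does not bound the FPKM ratio at 2-fold, and single pairs of LSK libraries reached 2.07. In both populations, 6 of the 8 tested members had groups that did not overlap, Camkk1 among them, and this was the case for 41.7% of all tested genes in HSCs and 50.7% in LSK cells. The test of whether the RBC effect differed between the populations called 0 of the 7 members other than Camkk1. Of all genes, 0.108% were called, or 0.133% without the fold threshold. At an unadjusted p under 0.05 there were 0 of the 7, against 12.5% of all genes.

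**Figure D3:**
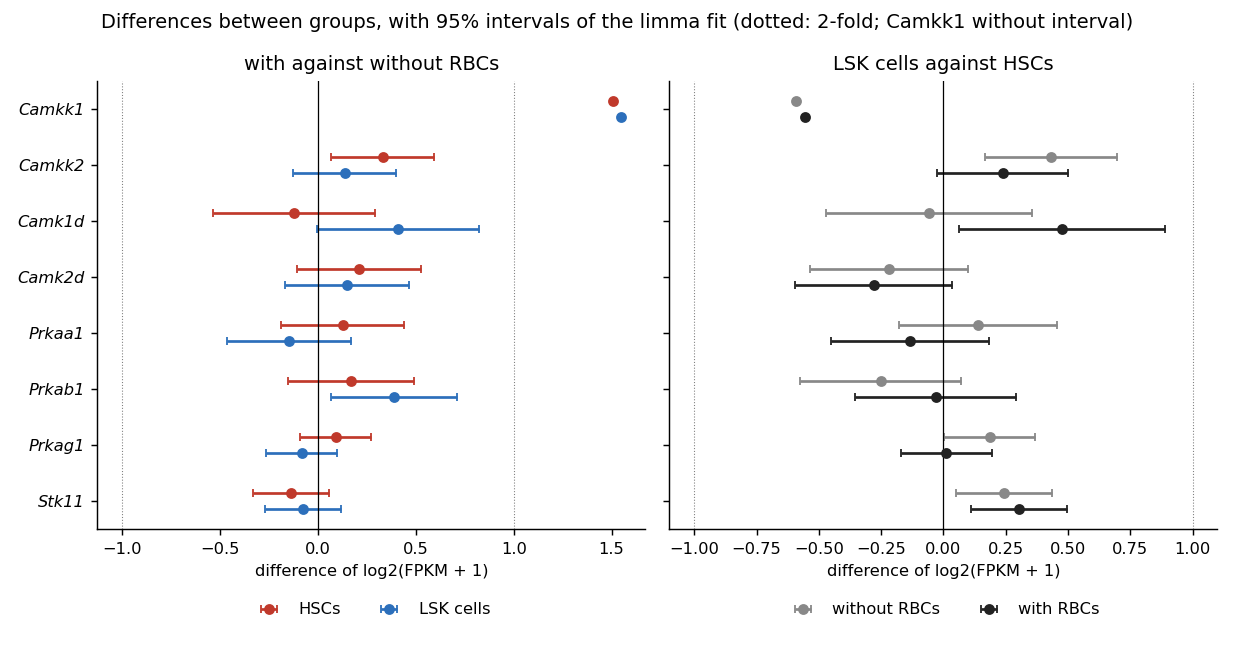
Differences of log2(FPKM + 1) (x axes) for the 8 tested members, with RBCs against without (left; red HSCs, blue LSK cells) and LSK cells against HSCs (right; gray without RBCs, black with RBCs). Points are estimates of the limma fit, and bars 95% intervals (none for Camkk1, which was chosen on these values). Dotted lines mark a 2-fold difference of FPKM + 1. Camkk1 lies at 1.51 and 1.55 on the left, and each interval of the other 7 lies between the dotted lines in both panels.

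Between the populations, the CaMKK paralogs differed in opposite directions. Camkk1 was lower in LSK cells than in HSCs, by -0.59 (SE 0.146) without and -0.56 (SE 0.146) with RBCs. Camkk2 was higher in LSK cells without RBCs, at 13.9 and 14.7 FPKM against 11.4 and 9.35 FPKM (difference 0.43, SE 0.117, adjusted p = 0.0385), though by less than 2-fold. That adjusted p stayed under 0.05 in 6 of 16 alternative fits. In 7 of the 8 fits that left out 1 library, all but that without the first HSC library alone, it was above 0.05, the highest (0.171) without the second HSC library alone. With RBCs the Camkk2 difference was 0.24 (SE 0.117, adjusted p = 0.174).

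Stk11 was higher in LSK cells than in HSCs in both conditions. The difference was 0.30 with RBCs (SE 0.0854, adjusted p = 0.0298) and 0.24 without (SE 0.0854, adjusted p = 0.0924), under 2-fold in each case. With RBCs, the adjusted p stayed under 0.05 in 10 of 16 alternative fits, and it was between 0.0713 and 0.167 when any library of the groups compared was left out. Camk1d was higher in LSK cells with RBCs by 0.47 (SE 0.183, adjusted p = 0.0905), and Prkag1 in LSK cells without RBCs by 0.19 (SE 0.0807, adjusted p = 0.167), so that neither passed the test. For Camk2d, Prkaa1 and Prkab1, the differences lay between -0.28 and 0.14, with adjusted p-values from 0.179 to 0.898.

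Since Camkk1 was chosen partly for its level in these populations, it is left out of the counts here. Of the 7 other tested members, limma called 0 at 2-fold between LSK cells and HSCs, in either condition, where 2.66% of all genes were called without and 3.61% with RBCs. At an unadjusted p under 0.05 there were 3 without RBCs, against 28.7% of all genes, and 2 with RBCs, against 37.6%. Without the fold threshold, 1 of 7 passed without RBCs (Camkk2) and 1 of 7 with RBCs (Stk11), against 14.2% and 24.4% of all genes. The groups did not overlap for 4 of 7 in each condition, against 54.8% and 66.8% of all genes. The shares of the members were thus near or below those of all genes, apart from the unadjusted count without RBCs.

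The wider pathway was described with 10 lists that hold 113 genes, of which 95 were tested. The lists were drawn up with earlier results of these data known. Among the kinases, subunits, substrates and calcium handling genes, no gene besides Camkk1 was called with RBCs in either population. Of the CaM kinase cascade, 9 of 12 genes were tested, with a median difference of -0.12 in HSCs and 0.09 in LSK cells, and apart from Camkk1 the largest differences were -0.52 for Camk2b in HSCs (SE 0.205, adjusted p = 0.290) and that of Camk1d in LSK cells. Of the 6 tested AMPK subunit genes, the median was 0.11 in HSCs and -0.10 in LSK cells, with Prkag2 the farthest from 0 in HSCs (-0.28, adjusted p = 0.371). The 18 tested AMPK substrates and effectors had medians of -0.01 and -0.04, close to the -0.01 and -0.01 of all genes. Among them, Foxo3, a transcription factor known for its part in HSC maintenance, had the largest difference in LSK cells (0.57, SE 0.186, adjusted p = 0.141). Of 17 genes for calcium entry, release and pumping, 14 were above 0 in HSCs and 8 in LSK cells, and none passed the test. At an unadjusted p under 0.05 there were 2 in each population, against 13.7% of all genes in HSCs and 18.6% in LSK cells. Atp2a2, the calcium pump of the endoplasmic reticulum, had the largest difference in HSCs (0.34, adjusted p = 0.231), and Itpr3, a receptor for inositol trisphosphate, the largest in LSK cells (-0.48, adjusted p = 0.241). In the calcineurin and NFAT list, Ppp3cb, a catalytic subunit of calcineurin, was at -0.54 in HSCs (adjusted p = 0.197).

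Genes that respond to CREB, the factor at the end of the CaMKIV branch, and to other signals as well, held the remaining calls. Of 11 tested genes in this list, 1 was called higher in HSCs (Fos) and 2 in LSK cells (Fos and Egr1). None was called lower, beside the 0.775% and 1.01% of all genes called. In each population 7 of the 11 were above 0. In HSCs 5 of the 11 had an unadjusted p under 0.05, against 13.7% of all genes. Among these 5, Crem (-0.36, limma adjusted p = 0.261) and Per1 (-0.40, adjusted p = 0.361) were lower with RBCs. Fos, an immediate early transcription factor, had been selected by the study on these libraries, so its call is no independent evidence, which leaves 0 and 1 of the others. It was at 5.10 and 4.34 FPKM in HSCs without RBCs, 15.7 and 15.2 with RBCs, 3.27 and 1.74 in LSK cells alone, and 30.9 and 35.3 in LSK cells with RBCs. Egr1, another immediate early factor, was at 147 and 139 FPKM in HSCs without RBCs, 296 and 257 with RBCs, 77.9 and 35.8 in LSK cells alone, and 145 and 147 in LSK cells with RBCs. The Egr1 difference in LSK cells was 1.45 (SE 0.268, adjusted p = 0.0222). Its adjusted p was above 0.05 in 5 of 16 alternative fits, at 0.117 and 0.143 without the first or the second LSK library with RBCs, and the difference fell to 0.90 without the second LSK library alone. In HSCs the Egr1 difference was 0.94 (SE 0.268, adjusted p = 0.130). Without the fold threshold, Junb was added in both populations, at 0.63 (adjusted p = 0.0144) in HSCs and 0.76 (adjusted p = 0.00609) in LSK cells. Junb no longer passed in HSCs without the second library alone or the first with RBCs (adjusted p up to 0.122), or in LSK cells without the second with RBCs (adjusted p = 0.0636). The CREB factors and coactivators themselves gave 0 calls in 8 tested genes. In each population 1 of them had an unadjusted p under 0.05, against 13.7% of all genes in HSCs and 18.6% in LSK cells.

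**Figure D4:**
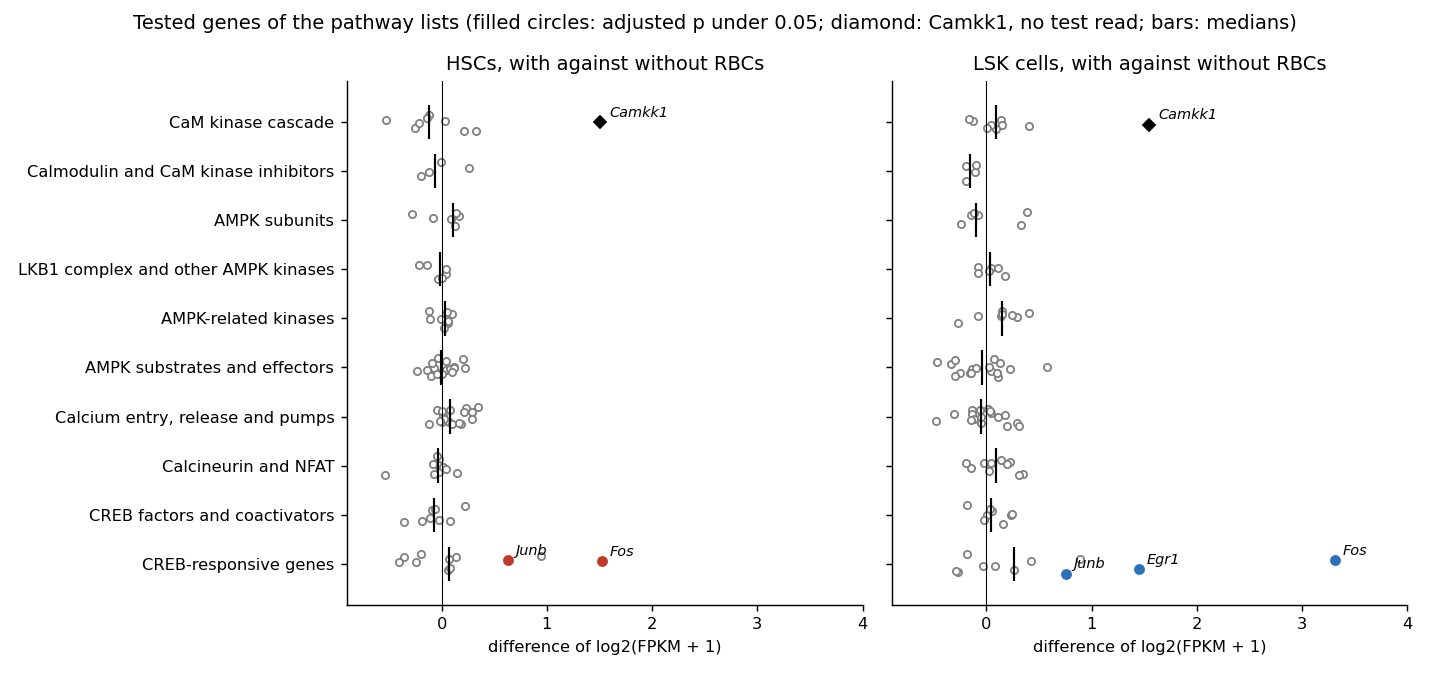
Differences of log2(FPKM + 1) with RBCs against without (x axes) for the tested genes of the 10 pathway lists (rows), in HSCs (left) and LSK cells (right). Filled circles had an adjusted p under 0.05, open circles did not, the diamond is Camkk1 with no test read, and vertical bars are the list medians; Camkk1 (1.51 and 1.55), Fos (1.53 and 3.31) and, in LSK cells, Egr1 (1.45) stand away from the other genes, with Junb at 0.63 and 0.76.

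Between LSK cells and HSCs, the pathway genes gave 1 call without RBCs, Egr1 with -1.42 (adjusted p = 0.00863), and 2 calls with RBCs. The Egr1 difference was -0.87 without the second LSK library alone. One of the latter was Nuak2, an AMPK-related kinase that LKB1 activates, at 5.83 and 7.84 FPKM in HSCs with RBCs and at 12.9 and 16.9 FPKM in LSK cells with RBCs (1.02, SE 0.193, adjusted p = 0.00556). The Nuak2 call was lost without the second LSK library with RBCs (0.84, adjusted p = 0.0528), and its difference was under 2-fold without the first HSC library with RBCs (0.83) and after rescaling to the same median (0.98) or quantile normalization (0.96). The other was Fos, with 1.05 (adjusted p = 0.00502), or 0.96 without the second LSK library with RBCs. Counted without a fold threshold, of the 95 tested genes 5 were higher and 7 lower in LSK cells without RBCs, and 11 were higher and 8 lower with RBCs, Camkk1 among the lower in both. The totals, 12 and 19 of 95, were smaller shares than the 14.2% and 24.4% of all genes.

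The 5 genes whose log2(FPKM + 1) values were most like those of Camkk1 over the 8 libraries were Bhlhe40 (Pearson's r = 0.995), Tgm2 (0.990), Adgrl4 (0.988), Bace2 (0.984) and Syngr1 (0.980). Bhlhe40 encodes a transcriptional repressor that also acts on the circadian clock, Tgm2 a protein cross-linking enzyme, Adgrl4 an adhesion receptor, Bace2 an aspartic protease and Syngr1 a vesicle membrane protein. Bhlhe40, Tgm2 and Bace2 had been selected by the study on the same libraries. Bace2 was at 2.45 and 3.02 FPKM in HSCs without RBCs, 12.6 and 11.9 with RBCs, 1.32 and 1.96 in LSK cells alone, and 10.2 and 8.40 in LSK cells with RBCs, the same order of the groups as for Camkk1. Adgrl4 had that order too with smaller steps, from 98.5 and 115 FPKM in LSK cells without RBCs to 171 and 169 FPKM in HSCs with RBCs. Among the members, Camk2d was the nearest to Camkk1 (r = 0.794), followed by Prkab1 (0.685), Camkk2 (0.242), Camk1d (0.107), Prkaa1 (-0.05), Prkag1 (-0.22) and Stk11 (-0.64). These r values describe 8 libraries in 4 groups, and the libraries of a group share their treatment.

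Genes around Camkk1 on chromosome 11 were added after the data had been examined. Within 200 kb of its start, 14 other genes are annotated to start, 10 of which were in the files and 9 of which were tested. Itgae, the integrin alpha E gene that starts 71.6 kb downstream, was at 2.37 and 2.64 FPKM in HSCs without RBCs, 12.1 and 11.6 with RBCs, 3.76 and 4.79 in LSK cells alone, and 13.1 and 12.3 in LSK cells with RBCs. Its difference was called in HSCs (1.87, SE 0.140, adjusted p = 3.0e-04) and in LSK cells (1.38, SE 0.140, adjusted p = 0.00110), and it contains Haspin on the opposite strand. P2rx1, an ATP-gated calcium-permeable channel gene that starts 19.9 kb upstream, was at 15.1 and 16.1 FPKM in HSCs without RBCs and at 27.3 and 33.2 with RBCs, and at 11.4 and 10.8 in LSK cells alone and 14.6 and 14.6 in LSK cells with RBCs. The P2rx1 difference was 0.91 in HSCs (SE 0.112, adjusted p = 0.00361), under 2-fold, and 0.37 in LSK cells (SE 0.112, adjusted p = 0.120), and these effects differed by 0.54 (adjusted p = 0.226). Between Camkk1 and Itgae lies Ncbp3, an RNA cap-binding gene, at 0.34 (adjusted p = 0.336) in HSCs and 0.08 (adjusted p = 0.814) in LSK cells. Atp2a3, a calcium pump gene that starts 57.8 kb upstream, was at 0.02 and -0.05, and of the other 5 tested genes none passed the test in either population.

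**Figure D5:**
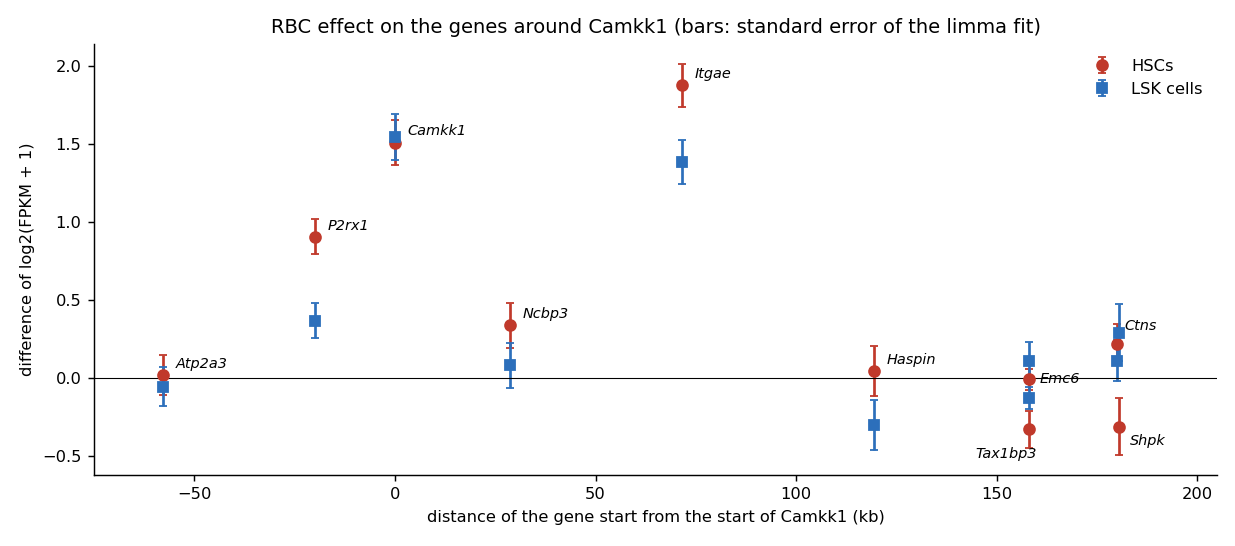
Difference of log2(FPKM + 1) with RBCs against without (y axis) against the distance of the gene start from the start of Camkk1 in kb (x axis), for Camkk1 and 9 tested neighbors (red circles HSCs, blue squares LSK cells; bars, standard error of the limma fit). Camkk1 (1.51 and 1.55) and Itgae (1.87 and 1.38) lie above 1 in both populations, and P2rx1 is at 0.91 in HSCs and 0.37 in LSK cells. The remaining genes lie between -0.33 (Tax1bp3 in HSCs) and 0.34 (Ncbp3 in HSCs).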

How the data were processed

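RNA was measured in HSCs and LSK cells cultured with or without RBCs, in 8 full-length cDNA libraries (SMART-Seq HT, Nextera XT), 2 per group, with each library's group read from its label. The authors deposited 1 FPKM value per gene symbol and library, normalized for transcript length and mapped fragments. The submitters' processing notes name TopHat2 2.1.1, Bowtie2 2.2.8, SAMtools 0.1.18, Cuffdiff 2.2.1 and the build mm10. The annotation and strand setting are not given in the sources used here. Replicates were not pooled.

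From the deposited FPKM, log2(FPKM + 1) was tested with limma 3.58.1 (R 4.3.3) for 12003 genes, those that reached 1 FPKM in 2 or more libraries. A single fit of the 4 groups used a mean-variance trend, with 4 residual and 5.18 prior degrees of freedom. A call needed a Benjamini-Hochberg adjusted p under 0.05 over all tested genes and a 2-fold difference of FPKM + 1. An exact two-sided permutation of 2 libraries against 2 gives no p under 0.333. The fit was tested on simulated data.

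Relative depth came from recurring FPKM ratios of genes with low values. Among 4301 of these genes, 3684 (85.7%) had whole multiples of 1 step in all libraries (tolerance 0.05 reads), and read numbers are lower bounds that cover counting of reads, not molecules. The members and gene lists were chosen with earlier results of these data known. Named are chiefly the 9 members, the called pathway genes and the pathway genes with the largest difference per list and population. The 5 genes most correlated with Camkk1 are named too. Promoters came from RefSeq (GRCm38.p6), where 8 of the 9 members had a window. Alternatives covered the pseudocount (0.1), filter, scaling, samples in the fit, trend, fold threshold, replicate block and the omission of each library.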

Additional observations from a re-analysis of the deposited data

How the results depend on the processing

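The count of members called was the same under the alternatives for the pseudocount, filter, scaling, trend, samples in the fit and omitted libraries. With RBCs against without, the 1 called member was Camkk1, which was chosen on these libraries, so nothing is read from that count. The count changed only without a fold threshold, from 0 to 2 of 8 between LSK cells and HSCs, both without and with RBCs, Camkk1 being 1 of them each time. The groups share replicate numbers in the labels only as numbers, since same-numbered libraries did not deviate together (r from -0.067 to 0.095). A replicate block left the members called at 1 in HSCs and 1 in LSK cells, Camkk1 each time, and 0 in the other comparisons. The calls over all genes were 93 in HSCs and 106 in LSK cells with the block. The adjusted p of Camkk2 between LSK cells and HSCs without RBCs was 0.0620 with the block.

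For the members other than Camkk1, 12 alternative values of the log2 differences turned direction. The turned difference farthest from 0 in the main fit was -0.22, for Prkab1 in the RBC effect in HSCs minus that in LSK cells. Prkag1 between LSK cells and HSCs with RBCs turned from 0.01 to -0.0320 when libraries were rescaled to the same median, and lay from -0.0499 to 0.0740 over the omissions of 1 library. Over the same omissions, Prkab1 in that comparison lay from -0.10 to 0.0367, Camk1d and Prkaa1 between LSK cells and HSCs without RBCs from -0.16 to 0.0462 and from -0.0283 to 0.31, and with RBCs in HSCs Camk1d from -0.25 to 0.00497 and Prkaa1 from -0.0426 to 0.29. For the RBC effect in HSCs minus that in LSK cells, Camk2d lay from -0.0582 to 0.18 and Prkab1 from -0.44 to 0.0035. The RBC effect on Camkk1 lay from 1.42 to 1.60 in HSCs and from 1.36 to 1.73 in LSK cells over the omissions. The Camkk1 effect in HSCs minus that in LSK cells, -0.04, also turned direction and lay from -0.22 to 0.14. Pathway and neighboring genes with an adjusted p under 0.05 lost it in 158 of 608 alternative values, with the direction kept in all 608; the cause was not tested. With an omitted library, the group left with 1 library is assumed to vary like the others. The FPKM values and 2 libraries per group limit the precision.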
